A study of Mus musculus with 2 samples.

Results

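Fezf2 is a zinc-finger transcription factor that, beside Aire, drives tissue-restricted genes in medullary thymic epithelial cells (mTEC), and Calb1, Maoa, Nol4, Coch, Resp18 and Itih3 are 6 genes of peripheral tissues reported as antigens that mTEC express without need of Aire. These 7 genes were chosen by name, with earlier results of these data known. The RefSeq transcript lines of both files that map to them number 9 of 30794, or 7 of 23123 gene symbols. Coch and Nol4 have 2 lines each and the other genes 1. The study sorted mTEC of wild-type B6 mice, from pooled thymi, into cells with high surface MHC class II (mTEChi) and cells with low surface MHC class II (mTEClo), with no treatment and no age stated, and sequenced 1 poly(A)-selected library per group. Sequencing gave read pairs of 100 bases for mTEChi and single reads of 50 bases for mTEClo, so group, read layout and depth cannot be told apart. No library lacks Aire or Fezf2, so dependence on either factor was not measured.

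Medullary epithelial cells display proteins of other organs to developing T cells, so that T cells reactive to these proteins are removed or turned into regulatory T cells. MHC class II rises as these cells mature, and Aire marks the mature stage. Fezf2 was described as a second regulator whose expression depends on lymphotoxin beta receptor signalling and whose target genes differ in large part from those of Aire.

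The values are RPKM, read numbers divided by transcript length and by depth, so that levels can be compared between genes. From the steps in the RPKM values, the depth was estimated at 114740000 reads for mTEChi and 20860000 reads for mTEClo. Changes are given on 2 scales. The first, called the log2 change, is log2 of (mTEChi + 1) over (scaled mTEClo + 1), where the mTEClo values were multiplied by 1.21 so that well-expressed genes had a median ratio of 1. Adding 1 RPKM to both values makes this change too small where levels are low. The second is the plain ratio of the scaled values, with a 95% exact interval from the recovered reads. Such intervals cover counting error only, and they are too narrow for mTEChi where both reads of a pair were counted. With 1 library per group there is no replicate error and no test, and each comparison is one of these 2 libraries only.

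Both libraries carried the markers of the sorted cells. Epcam, an epithelial surface protein, was listed at 198 RPKM in mTEChi and 127 RPKM in mTEClo. H2-Aa, a chain of the MHC class II molecule used for the sort, was listed at 4908 and 1524 RPKM. All 7 mTEC markers passed the filter, of which 3 were at least 2-fold higher in mTEChi (Aire, Cd80 and H2-Aa) and 2 were 2-fold lower. The lower ones were the keratins Krt5 (448 against 770 RPKM, -1.05, or -0.78 without scaling and -0.91 with the same RPKM sum) and Krt14 (231 against 566 RPKM, -1.57). The list summed to 6971 RPKM in mTEChi and 3712 RPKM in mTEClo. Markers of other cells differed between the libraries. Among all genes that passed the filter, 16.1% were at least 2-fold higher in mTEChi and 9.35% at least 2-fold lower. Of 7 dendritic cell and macrophage markers 5 passed the filter and 4 were at least 2-fold higher in mTEChi. The 7 summed to 522 RPKM against 137 RPKM, nearly all of it from Lyz2 (493 against 133 RPKM). Flt3, Xcr1 and Siglech of that list were at 0 in mTEClo. All 6 fibroblast markers passed the filter and 5 were at least 2-fold lower in mTEChi (34.2 against 581 RPKM summed). All 4 endothelial markers were at least 2-fold lower (10.6 against 89.0 RPKM summed). Of 4 B cell markers 2 passed the filter and 1, Cd79a, was at least 2-fold higher in mTEChi (3.92 against 0.472 RPKM summed), with Cd79a, Ms4a1 and Pax5 at 0 in mTEClo. Of 5 thymocyte markers 4 passed, 2 with a log2 change above 0 and 2 below. Cd4 was at least 2-fold higher (5.13 against 0.959 RPKM). Cd3e (0.576 against 1.50 RPKM) and Ptcra (0.523 against 1.01 RPKM) were lower in mTEChi, with log2 changes short of 2-fold. The 5 summed to 7.50 against 3.88 RPKM, with most of the mTEChi sum from Cd4. The 2 cortical epithelial markers summed to 4.41 against 0.790 RPKM, the 3 tuft-like markers to 68.0 against 73.0 RPKM with none past 2-fold, and Hba-a1 of the erythroid markers had 133 against 1915 RPKM. In bulk samples, fewer cells of a type and less RNA per cell cannot be told apart. The part of these other cells in the values below was not tested.

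The promoters of the genes are shown first because their CpG content differs widely within the group. RefSeq promoter windows (GRCm38.p6) were examined for 5 of the 7 genes: Fezf2, Coch, Maoa, Resp18 and Itih3. No promoter sequence was at hand for Calb1, and Nol4 was left out, so the promoters of these genes were not examined. The expression files use build mm9, and these coordinates were not carried over to it. The 100 bases before the annotated start are printed 5′ to 3′ on the gene's strand, with CpG dinucleotides in capitals.
Fezf2, chr14:12345866-12345965, minus strand: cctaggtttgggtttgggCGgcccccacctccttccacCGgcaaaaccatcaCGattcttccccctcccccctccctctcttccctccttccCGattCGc
Coch, chr12:51593241-51593340, plus strand: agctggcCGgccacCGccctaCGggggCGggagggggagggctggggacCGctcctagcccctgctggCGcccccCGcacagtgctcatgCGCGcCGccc
Maoa, chrX:16619598-16619697, plus strand: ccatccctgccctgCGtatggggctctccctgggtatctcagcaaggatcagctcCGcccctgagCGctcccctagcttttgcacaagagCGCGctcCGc
Resp18, chr1:75278416-75278515, minus strand: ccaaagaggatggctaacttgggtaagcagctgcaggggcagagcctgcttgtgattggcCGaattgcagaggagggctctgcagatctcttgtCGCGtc
Itih3, chr14:30923588-30923687, minus strand: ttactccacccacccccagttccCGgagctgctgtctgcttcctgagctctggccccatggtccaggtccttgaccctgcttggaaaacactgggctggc

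The printed stretch holds 10 CpG in Coch, 6 in Maoa, 5 in Fezf2, 3 in Resp18 and 1 in Itih3. Over the full window of 300 bases (250 before to 50 after the start), the observed over expected CpG ratio was 0.79 in Coch, 0.74 in Fezf2, 0.60 in Maoa, 0.25 in Resp18 and 0.13 in Itih3. The median of 32851 RefSeq windows was 0.38, so Coch, Fezf2 and Maoa lay above it and Resp18 and Itih3 below it. The TATA box letters TATAAA, searched on both strands, occurred in 2 of the 5 windows (Coch and Itih3) and in 13.6% of all windows. Both matches began 3 bases after the annotated start, in Coch on the strand opposite to the gene. Neither match thus lies in the printed stretch before the start. The GC box letters GGGCGG, also on both strands, occurred in 4 of the 5 windows (all but Resp18) and in 35.7% of all windows. A match is a description of the letters and no evidence of binding. Resp18 and Fezf2, whose changes were nearly the same (below), thus had promoters on opposite sides of the median CpG ratio.

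Fezf2 was among the most abundant transcripts of both libraries. It was listed at 144 RPKM in mTEChi and 41.0 RPKM in mTEClo, at or above 98.5% of gene symbols in mTEChi and 95.2% in mTEClo. The mTEChi value was the higher, by a log2 change of 1.52. The scaled ratio was 2.91, with a counting interval from 2.77 to 3.04. About 36149 reads in mTEChi and 1872 reads in mTEClo stand behind these values, so counting error is small beside the difference. Among the 15590 genes kept for comparison, those whose mean over both libraries reached 0.5 RPKM, 1214 had a larger change than Fezf2.

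Resp18, a protein of secretory granules in neuroendocrine cells, had the highest level of the 6 antigens. It was listed at 223 RPKM in mTEChi and 63.0 RPKM in mTEClo, above Fezf2 itself in each library. Its log2 change was 1.54 and its scaled ratio 2.93 (interval 2.75 to 3.13), so its interval overlapped that of Fezf2. Resp18 alone made up 89.0% of the summed RPKM of the 6 antigens in mTEChi and 89.8% in mTEClo. The neuroendocrine markers did not share one direction with it. Insm1, a neuroendocrine transcription factor, was listed at 40.4 RPKM in mTEChi and 10.1 RPKM in mTEClo, and the granin gene Chgb at 4.80 and 18.9 RPKM. The summed level of the 4 neuroendocrine markers was 81.6 RPKM in mTEChi and 71.4 RPKM in mTEClo, and none was at 0. Their part in the Resp18 value was not tested.

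Coch, Calb1 and Itih3 were low or nearly absent in mTEClo and had the largest plain ratios of the 7 genes. Coch encodes cochlin, a secreted protein of the inner ear matrix. It was listed at 11.7 RPKM in mTEChi and 1.02 RPKM in mTEClo, a log2 change of 2.51 and a scaled ratio of 9.49 (interval 7.27 to 12.8). Its other line gave 10.9 and 0.945 RPKM, nearly the same ratio. The 2 lines correspond to 52 and 53 reads in mTEClo, and the sources used here do not state how reads shared by isoforms were assigned. Calb1 encodes calbindin, a calcium-binding protein of neurons and kidney tubules. It was listed at 4.08 RPKM in mTEChi and 0.184 RPKM in mTEClo, with a log2 change of 2.06. The scaled ratio was 18.4 (interval 11.4 to 32.6), and it rests on 1976 reads in mTEChi and 16 reads in mTEClo. Itih3 encodes a heavy chain of the inter-alpha-trypsin inhibitors, plasma proteins made in the liver that bind hyaluronan. It had the lowest level of the 7 genes in each library, with 1.71 RPKM in mTEChi and 0.102 RPKM in mTEClo. Its log2 change was 1.27 and its scaled ratio 13.9 (interval 6.71 to 40.2), from 586 and 6 reads. At equal levels in both libraries, about 88.1 reads of Itih3, 297 of Calb1 and 497 of Coch would have been expected in mTEClo. The plain ratios of Calb1, Itih3 and Coch had overlapping intervals between neighbours, so their order is not resolved at this depth.

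Maoa and Nol4 differed least between the libraries. Maoa encodes monoamine oxidase A, a mitochondrial enzyme that degrades serotonin and noradrenaline. It was listed at 5.51 RPKM in mTEChi and 3.05 RPKM in mTEClo, a log2 change of 0.47 and a scaled ratio of 1.50 (interval 1.32 to 1.70). Nol4 encodes a nucleolar protein expressed mainly in brain and testis. Its longer line was listed at 4.66 RPKM in mTEChi and 2.77 RPKM in mTEClo, a log2 change of 0.38 and a scaled ratio of 1.39 (interval 1.22 to 1.58). Its shorter line gave 4.30 and 2.41 RPKM and a log2 change of 0.44. Both genes were thus higher in mTEChi beyond counting error, and neither reached 2-fold.

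**Figure D1:**
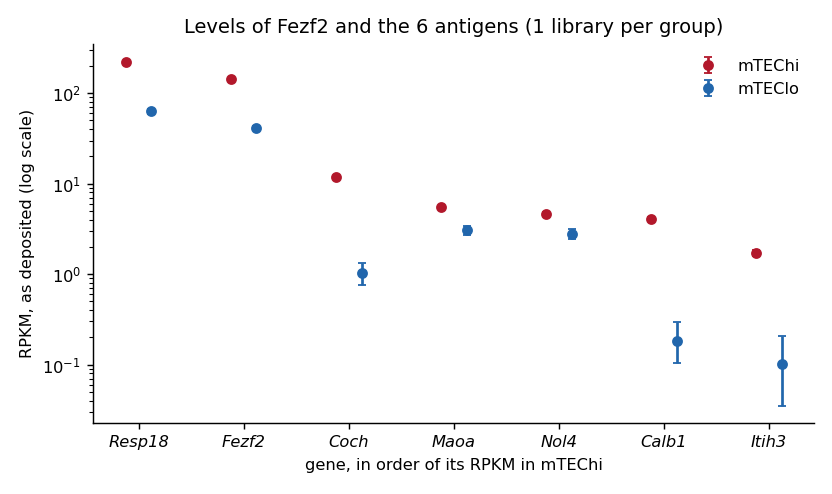
Deposited RPKM (log scale) of Fezf2 and the 6 antigens in the mTEChi library (red) and the mTEClo library (blue), with 95% counting intervals. Every gene is higher in mTEChi, and the intervals widen below 1 RPKM in mTEClo, where Calb1 rests on 16 and Itih3 on 6 reads.

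Together, 5 of the 7 genes were at least 2-fold higher in mTEChi (Fezf2, Resp18, Coch, Calb1 and Itih3) and 0 were 2-fold lower. Among all 15590 kept genes, 2508 (16.1%) were at least 2-fold higher and 1457 (9.35%) at least 2-fold lower. The median log2 change was 1.52 for the 7 genes and 0.03 for all kept genes. All 7 genes were kept. Itih3, with a mean of 0.904 RPKM, and Calb1, with a mean of 2.13 RPKM, passed only through their values in mTEChi, and both are among the 5 higher genes. A pseudocount of 5 RPKM brought Calb1 to 0.80 and Itih3 to 0.39, below 2-fold, which left 3 of the 7 genes past it and 5.63% of all kept genes. None of the 7 genes was listed at 0 in mTEClo, where 829 kept genes (5.32%) were.

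**Figure D2:**
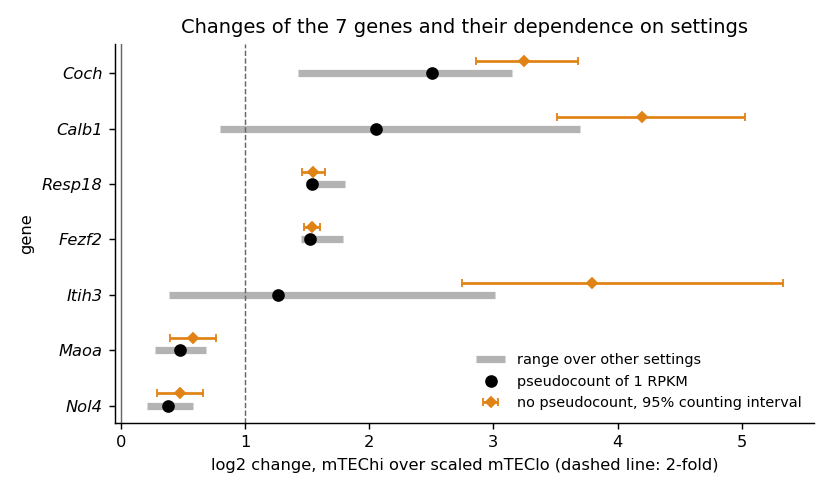
Log2 change of each gene with a pseudocount of 1 RPKM (black), the range over the other settings (grey bar) and the log2 ratio without a pseudocount with its 95% counting interval (orange). Fezf2 and Resp18 stay near 1.5 on both scales, Coch, Calb1 and Itih3 depend on the pseudocount, and Maoa and Nol4 stay below the dashed line at 2-fold.

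**Figure D3:**
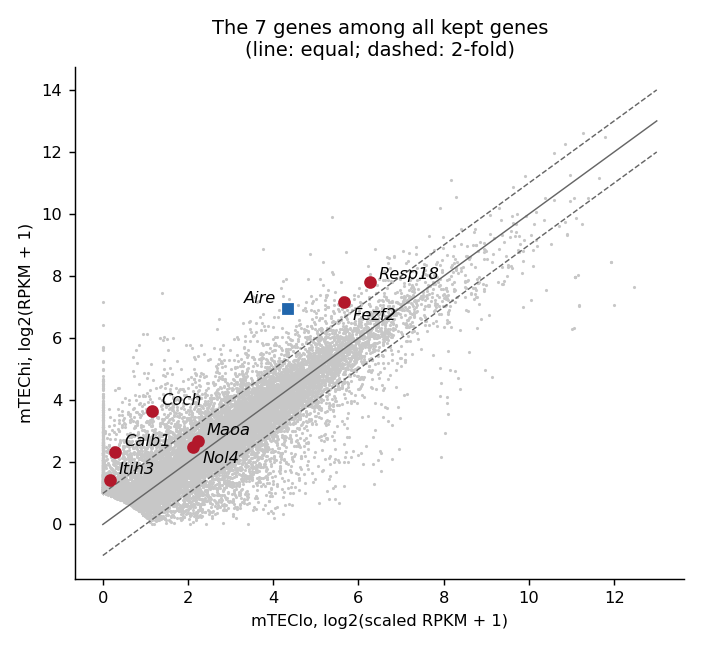
Level of every kept gene (grey) in mTEClo (x axis, scaled) and mTEChi (y axis), both as log2(RPKM + 1), with the 7 genes in red and Aire as a blue square. Maoa and Nol4 lie between the dashed 2-fold lines, the other 5 genes above the upper one.

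The order of the levels differed between the libraries. In mTEChi it ran Resp18, Fezf2, Coch, Maoa, Nol4, Calb1, Itih3, and the counting intervals of all neighbours were apart. In mTEClo Coch came after Maoa and Nol4, with 1.02 RPKM against 3.05 and 2.77 RPKM. There, the intervals of Maoa and Nol4 overlapped, as did those of Calb1 and Itih3.

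Ratios of 2 genes inside a library do not depend on the scaling between libraries. Resp18 stood at 155% of the Fezf2 level in mTEChi and 154% in mTEClo. The quotient of these ratios was 1.01, with a counting interval from 0.93 to 1.09. Maoa stood at 3.83% of the Fezf2 level in mTEChi and 7.43% in mTEClo (quotient 0.51, interval 0.45 to 0.59), and Nol4 at 3.23% and 6.76% (0.48, interval 0.42 to 0.55). These genes were lower relative to Fezf2 in mTEChi. Coch stood at 8.14% and 2.49% (3.27, interval 2.49 to 4.34), Calb1 at 2.83% and 0.448% (6.33, interval 3.90 to 10.5) and Itih3 at 1.19% and 0.249% (4.77, interval 2.26 to 11.3). Relative to Fezf2, 2 antigens were thus lower in mTEChi than in mTEClo, 3 were higher, and Resp18 did not differ beyond counting error.

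**Figure D4:**
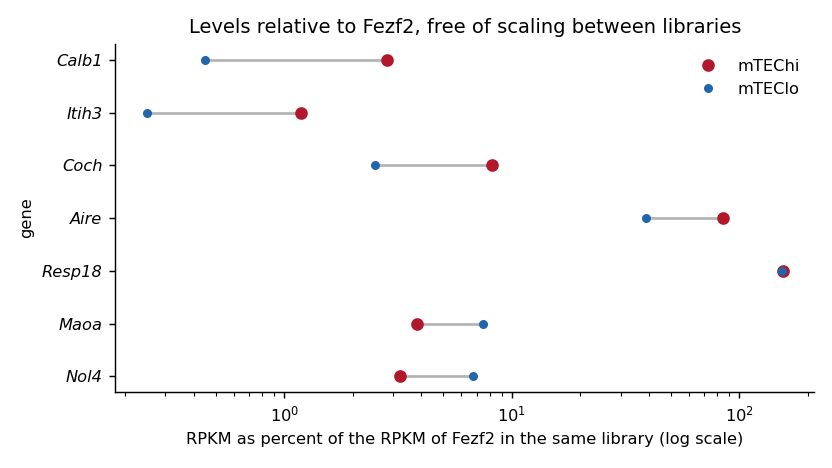
RPKM of the 6 antigens and Aire as a percentage of the Fezf2 RPKM in the same library (log scale), for mTEChi (red) and mTEClo (blue). The points of Resp18 coincide at 155% and 154%, Maoa and Nol4 shift to the left in mTEChi, and Coch, Calb1, Itih3 and Aire shift to the right.

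Aire had a larger difference between the libraries than Fezf2. It was listed at 122 RPKM in mTEChi and 15.9 RPKM in mTEClo, a log2 change of 2.61. The Fezf2 level was 1.18 times that of Aire in mTEChi and 2.58 times in mTEClo, a quotient of 0.46 (interval 0.41 to 0.50). Relative to Aire, Maoa, Nol4 and Resp18 were lower in mTEChi than in mTEClo, with quotients of 0.24, 0.22 and 0.46. Calb1 (2.89, interval 1.77 to 4.82) and Coch (1.49, interval 1.13 to 2.00) were higher even relative to Aire. For Itih3 the quotient was 2.18, but it rests on 6 reads in mTEClo. Its approximate interval, 1.03 to 5.19, begins close to no difference, so its direction relative to Aire is not resolved.

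Genes listed as upstream signals or partners of Fezf2 were mixed. Their list also holds Aire, the other regulator, the relative Fezf1 and the receptor genes Tnfrsf11a and Cd40, and the counts include all of these. Only lymphotoxin beta receptor signalling is named above as a signal on which Fezf2 depends. The place of the other signalling genes on the list was not tested. Of 18 genes, 17 passed the filter, 5 were at least 2-fold higher in mTEChi (Aire, Cd40, Lta, Nfkb2 and Tnfrsf11a) and 0 were 2-fold lower, or 29.4% and 0% beside 16.1% and 9.35% of all kept genes. Their log2 changes had a median of 0.45. Ltbr, the lymphotoxin beta receptor, was listed at 25.1 RPKM in mTEChi and 32.7 RPKM in mTEClo (-0.64). Its ligand genes were higher, Lta with 9.94 against 1.52 RPKM (1.95) and Ltb with 13.5 against 7.95 RPKM (0.45). Tnfrsf11a, the receptor RANK, had 18.4 against 5.47 RPKM (1.35), and Cd40, a costimulatory receptor, 61.8 against 6.61 RPKM (2.80). Among the transducers of alternative NF-kB signalling, Nfkb2 had 88.2 against 30.2 RPKM (1.25), Relb 75.6 against 43.3 RPKM (0.52) and Map3k14, the kinase NIK, 17.7 against 17.0 RPKM (-0.21). Chd4, a chromatin remodeller reported as a partner of Fezf2, had 18.7 against 14.6 RPKM (0.08). Fezf1, the close relative of Fezf2, was lower in level than Fezf2, with 3.08 RPKM in mTEChi and 4.02 RPKM in mTEClo (-0.52). The Groucho co-repressor genes Tle1 (-0.56), Tle2 (-0.26), Tle3 (0.67) and Tle4 (-0.28) did not reach 2-fold in either direction.

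Other antigens reported as linked to Fezf2 or independent of Aire covered a wider range than the 6 antigens. The assignment of genes to this list and to the Aire-dependent list comes from general knowledge and was not tested here. Both lists were made with earlier results of these data known, so their shares below are descriptions only. Of 13 genes all passed the filter, 8 were at least 2-fold higher in mTEChi and 0 were 2-fold lower. These are shares of 61.5% and 0%, beside 16.1% and 9.35% of all kept genes. Of the 8, Fcamr, Apob (0.127 RPKM in mTEClo) and Gad1 passed only through their values in mTEChi. With a pseudocount of 5 RPKM, 5 were higher, beside 5.63% of all kept genes. The log2 changes of the 13 genes had a median of 1.57, or 1.81 with Fcamr, listed at 0 in mTEClo, at the bound that 3 reads give. Krt10, a keratin of differentiating epidermis, had 231 against 14.6 RPKM (3.64). Fabp9, a lipid-binding protein of the testis, had 144 against 9.34 RPKM (3.56), and the plasma protein gene Ttr, transthyretin, 39.0 against 4.66 RPKM (2.59). Gad1, which makes the neurotransmitter GABA, had 3.52 against 0.237 RPKM (1.81), whereas Crp, the C-reactive protein of the liver, had 10.1 against 11.2 RPKM (-0.38).

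With a pseudocount of 1 RPKM, Aire-dependent antigens had a larger median log2 change, 3.51, than the 6 antigens, 1.40. Of 16 genes 15 were measured and 13 passed the filter. Of these, 10 were at least 2-fold higher in mTEChi and 1, the hormone gene Sst, was lower (28.1 against 71.8 RPKM, -1.59). The shares were 76.9% and 7.69%, beside 16.1% and 9.35% of all kept genes. Ins2 (insulin), Gip, Npy and Pyy were listed between 20.04 and 50.1 RPKM in mTEChi and at 0 in mTEClo, so they passed the filter only through mTEChi. Placed at the bound that 3 reads give, these genes left the median at 3.51. Without genes at 0, the median of the Aire-dependent antigens was 2.48, with 6 of 9 genes at least 2-fold higher. Of all kept genes above 0 in both libraries, 11.4% were. The log2 changes of the Aire-dependent antigens ran from -1.59 to 5.68, and those of all 6 antigens, from 0.38 to 2.51, lay within that range. Without a pseudocount, the Aire-dependent median was 2.94 over the 9 genes above 0 in both libraries. On that scale Calb1 (4.20), Itih3 (3.79) and Coch (3.25) lay above it, and Resp18 (1.55), Maoa (0.58) and Nol4 (0.48) below it. How the 6 antigens stand to the Aire-dependent list thus depends on the pseudocount. The difference between the lists was not tested, as there is 1 library per group.

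**Figure D5:**
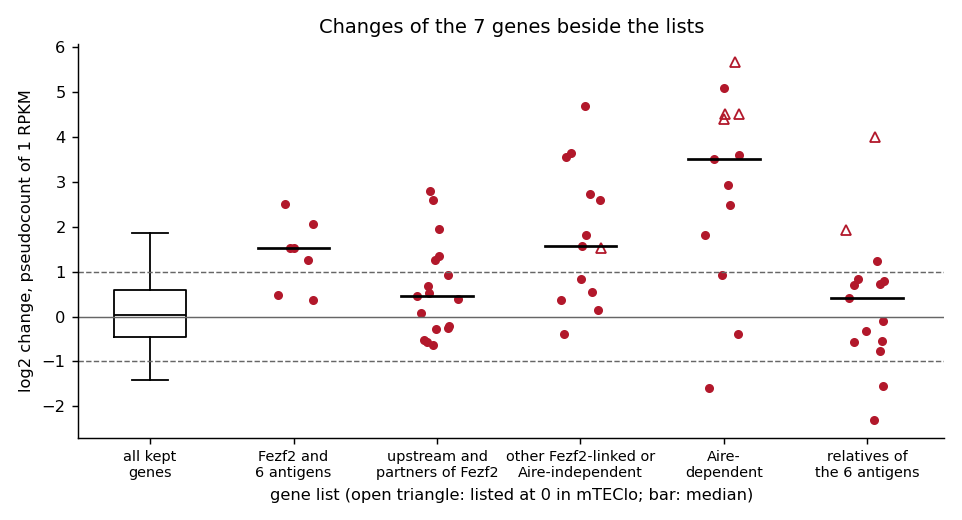
Log2 change (pseudocount of 1 RPKM) of the 7 genes and of 4 gene lists, each point a kept gene, with bars at the list medians, open triangles for genes listed at 0 in mTEClo, and a box for all kept genes (quartiles, whiskers at the 5th and 95th percentiles). The 7 genes have a median of 1.52, beside 0.03 for all kept genes and 3.51 for Aire-dependent antigens.

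Relatives and pathway neighbours of the 6 antigens were mixed, with 8 of 15 kept genes above 0 on the log2 scale and 7 below. Of 16 such genes 15 passed the filter, 3 were at least 2-fold higher in mTEChi (Calb2, Itih4 and Ambp) and 2 were 2-fold lower (Itih5 and Vit), shares of 20% and 13.3% beside 16.1% and 9.35% of all kept genes. Their log2 changes had a median of 0.42, also with the 2 genes at 0 in mTEClo (Calb2 and Itih4) at their bound. Calb2 and Itih4 passed the filter only through their values in mTEChi. Without genes at 0, 1 of 13 relatives was at least 2-fold higher and 2 were lower, with a median of -0.10. These are shares of 7.69% and 15.4%, beside 11.4% and 9.85% of all kept genes above 0 in both libraries. Calb2, which encodes the calbindin relative calretinin, was listed at 14.9 RPKM in mTEChi and at 0 in mTEClo. S100g, another calcium-binding protein, was far more abundant, with 220 against 110 RPKM (0.73). Among the inter-alpha-trypsin inhibitor genes, Itih1 had 1.51 against 0.342 RPKM (0.83), Itih4 2.82 RPKM against 0 and Itih2 0.611 against 0.337 RPKM, below the filter. Ambp, which encodes the light chain bikunin, had 6.62 against 1.82 RPKM (1.25), whereas Itih5 had 0.680 against 6.01 RPKM (-2.30). Maob, the relative of Maoa, had 2.39 against 0.893 RPKM (0.70). Nol4l, the relative of Nol4, had 2.96 against 1.63 RPKM (0.42). Vit, a matrix protein gene related to Coch, had 0.469 against 2.74 RPKM (-1.55). Ptprn, a relative of Resp18, had 2.71 against 0.948 RPKM (0.79), and Ptprn2 8.71 against 9.18 RPKM (-0.32).

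The genes with levels most like each of the 7 were named by their distance in the plane of both log2 levels, over 2 libraries, which is a description of level only. The 5 nearest to Fezf2 were Tnip1, Gsta4, Rpl12, Rbbp7 and Krt16, at distances from 0.06 to 0.15. Those nearest to Resp18 were Bcl2a1d, Sgpl1, Lrrc42, Laptm5 and H2-DMb2 (0.11 to 0.27), and those nearest to Coch were Cdhr2, Mboat1, Gatm, Alox12b and Prss30 (0.09 to 0.15). Calb1 was nearest to Vipr1, Meltf, Slc35f2, Sis and Abcg8 (0.02 to 0.09), and Itih3 to Cntnap2, Ngef, Lrat, Slc28a2 and Kcnj12. Maoa was nearest to Vps37a, Baz1a, Phf14, Trim62 and Srek1ip1, and Nol4 to Desi2, Ago2, Mospd2, Ints7 and Nfxl1. Within a distance of 0.1 there were 44 genes for Maoa and 37 for Nol4, but 1 for Coch and 0 for Resp18.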

How the data were processed

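The authors deposited 1 RPKM value per RefSeq transcript line and library, each library coming from pooled thymi. CASAVA, Bowtie 1.0.0, bedtools and build mm9 are named in the submitters' processing notes, without their roles. The TruSeq kit does not keep strand, per the labels' protocols. Of 30794 lines, 30396 were named through RefSeq and GENCODE tables. A gene is its line with the highest mean RPKM. Reads were recovered as RPKM times GENCODE transcript length times depth, with the depth that made low values whole: 76.7% of 1638 lines with few reads in mTEChi and 65.4% of 1061 in mTEClo lay within 0.1 of a whole read. Genes were kept where their mean reached 0.5 RPKM, and 5167 genes above 0 in both libraries whose mean reached 10 RPKM set the scaling. Intervals are exact (95%) for levels and changes, and approximate for quotients of 2 ratios. No other RefSeq gene of the table used overlaps the 7 genes. Named genes are the 7 members, the lists, cell type markers and the 5 nearest genes of each member (leaving out provisional names and small RNA genes). Members and lists were chosen with earlier results of these data known. Alternatives were other pseudocounts, scalings, filters and isoform choices, and leaving out genes at 0. The procedure was tested on simulated data. Software was scipy 1.17.1, pandas 2.3.3, numpy 2.4.6 and matplotlib 3.10.9 under Python 3.11.15. Some single genes of the lists are not reported here.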

Additional observations from a re-analysis of the deposited data

How the results depend on the processing

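No paired analysis was possible because each group has 1 library, and no library could be left out. Fezf2, Resp18 and Coch stayed at least 2-fold higher, and Maoa and Nol4 below 2-fold, in every setting in which they were kept. Across settings with a pseudocount the log2 change ran from 1.45 to 1.79 for Fezf2, from 1.49 to 1.81 for Resp18, from 1.42 to 3.15 for Coch, from 0.80 to 3.70 for Calb1, from 0.39 to 3.02 for Itih3, from 0.28 to 0.69 for Maoa and from 0.21 to 0.59 for Nol4. With a pseudocount of 5 RPKM, Fezf2 was at 1.45, the members' median at 0.80 with 3 of 7 higher, and all genes gave 877 higher and 648 lower. The other lists then had medians of 2.42 (Aire-dependent), 0.63 with 5 higher (other Fezf2-linked or Aire-independent) and 0.19 with 1 higher and 1 lower (relatives). With 0.1 RPKM the other Fezf2-linked or Aire-independent antigens had a median of 2.83 and the relatives 6 higher. Without scaling, Fezf2 and the members' median were at 1.79 and the upstream list at 0.69, while the median of all kept genes moved from 0.03 to 0.25. With the same RPKM sum, Fezf2 was at 1.66 and the upstream list at 0.58. The share of higher genes among all 2-fold calls was 63.3% in the main counts, 74.9% without scaling, 53.6% without genes at 0 in either library (11.4% of genes higher) and 53.0% without a pseudocount. With the minimum mean raised to 5 RPKM, 3 of 3 kept members were higher, beside 1010 higher and 822 lower of all genes. In that setting the other Fezf2-linked or Aire-independent antigens had 5 higher and a median of 2.74, and the relatives 1 higher, 0 lower and a median of -0.32. Without a filter the Aire-dependent median was 2.93. Without genes at 0, the Aire-dependent antigens had 6 higher and a median of 2.48, and the relatives 1 higher and a median of -0.10. Without a pseudocount, an alternative added after the data were seen, the medians were 2.94 (Aire-dependent), 2.81 (other Fezf2-linked or Aire-independent) and -0.12 (relatives). The 6 reads of Itih3 and 16 of Calb1 in mTEClo limit the precision of their ratios.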

Other observations

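The genes next to the 7 on their chromosomes were looked up after the data were seen, as the 2 protein-coding genes on either side in RefSeq. Of these 28 neighbours 22 passed the filter, 3 were at least 2-fold higher in mTEChi and 1 was 2-fold lower, or 13.6% and 4.55% beside 16.1% and 9.35% of all kept genes, so the counts show nothing particular to the neighbours. Their log2 changes had a median of 0.29. Cadps, a gene of dense-core vesicle release beside Fezf2, was listed at 50.8 RPKM in mTEChi and 7.39 RPKM in mTEClo (2.38). Scfd1, a gene of vesicle transport beside Coch, had 7.03 against 0.824 RPKM (2.01). Itih4 beside Itih3 was listed at 2.82 RPKM and at 0. The lower neighbour was Des, the muscle filament desmin, near Resp18, with 19.1 against 42.5 RPKM (-1.38). Of the 4 neighbours of Calb1, the 3 kept genes Tmem64, Decr1 and Nbn stayed below 2-fold, and Necab1, which did not pass the filter, was listed at 0.794 RPKM in mTEChi and at 0 in mTEClo.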
